A study of Mus musculus with 15 samples.

Results

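The genes for the proteins of the cytosolic ribosome were followed in RAW264.7, a macrophage cell line derived from mouse cells that Abelson virus had transformed, after exposure to 4 kinds of silica particle. A gene was counted as a member when it was annotated as protein-coding and its name began with Rpl or Rps followed by a digit, or was Rplp0, Rplp1, Rplp2 or Rpsa, with Rps6k kinases, Rps19bp1 and names containing -ps left out. This name rule gave 83 of the 13342 genes in the count table, 33 for the small (40S) subunit and 50 for the large (60S) subunit, and 82 of them passed the filter on low counts. The exception was Rpl29, with 1 to 11 counts per library. Fau, which encodes a ribosomal protein as a fusion, does not carry an Rpl or Rps name and was read with the other translation genes. Rpl10l and Rpl39l were not analysed here.

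The 15 libraries came from nonporous Stober silica of 50 nm (Stober50, 13.1 µg/ml), nonporous Stober silica of 500 nm (Stober500, 16.8 µg/ml), mesoporous silica of 500 nm (MSN500, 111.8 µg/ml), pegylated mesoporous silica of 500 nm (MSN-PEG500, 84 µg/ml) and untreated cells (Control), 3 libraries each. The study set out to compare the gene response of macrophages to these particles. The dosage labels word each value relative to an LC50, so the concentration applied is uncertain, and particle and dose differed together. Exposure lasted 24 h in one protocol of the labels and 4 h in another, all cells were at passages 6 to 14, and no batch or lane is named per library. All 12 macrophage markers examined passed the filter, with values from 2.646 to 11490.0 CPM (counts scaled to library size). Of 20 markers of fibroblasts, lymphocytes and epithelium 3 passed, with values from 0.3741 to 10.2 CPM. The ranges overlapped through Mrc1, a macrophage marker with a median of 3.588 CPM. The lymphocyte markers Lck and Ighm had medians of 6.024 and 9.138 CPM. All other macrophage markers were at 11.34 CPM or above in every library. MSN-PEG500 replicate 3 stood lower than the other libraries of its group in the ribosomal protein genes as a whole. The median member lay 0.17 below the Control mean on the log2 scale in that library, against 0.09 below it in each of the other MSN-PEG500 libraries (values of -0.17, -0.09 and -0.09). Results that rest on this library are given without it as well. In bulk RNA, fewer cells expressing a gene and less of its RNA per cell cannot be told apart.

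A ribosome is built from ribosomal RNA and a set of small, mostly basic proteins, one copy of each per particle apart from the stalk. Each protein is made from an mRNA that is abundant in growing cells, and most of these mRNAs begin with a C followed by a run of pyrimidines, the terminal oligopyrimidine (TOP) motif, through which the mTORC1 kinase pathway and the RNA-binding protein LARP1 control their translation. Mammalian genomes carry many processed copies of these genes, so a short read from one ribosomal protein mRNA can match several places.

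Sequences show what the libraries could measure and what some of the mRNAs share. The first is the start of the coding region of Rps27 and of its relatives Rps27rt and Rps27l, in GENCODE M21, with capitals at bases that differ from Rps27.
Rps27: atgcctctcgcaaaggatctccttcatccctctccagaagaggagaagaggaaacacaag
Rps27rt: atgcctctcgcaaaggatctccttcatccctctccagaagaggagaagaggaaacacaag
Rps27l: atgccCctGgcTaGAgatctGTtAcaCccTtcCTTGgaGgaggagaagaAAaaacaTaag
Rps27 (chromosome 3, 90212725 to 90213615, minus strand) and Rps27rt (chromosome 9, 114982399 to 114982739, minus strand) are identical over all 252 coding bases. Rps27l (chromosome 9, 66946086 to 66949516, plus strand) is identical to Rps27 at 76.2% of them, with 18 of the 60 printed bases different and no identical run longer than 11 bases. A read of 50 bases from the coding region of Rps27 therefore fits Rps27rt equally well, and none fits Rps27l. Rps27 had 6 to 27 counts per library and Rps27rt 2 to 11, whereas Rps27l had 1840 to 3020.

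The second set is the transcription start of 4 members. They are one of the stalk, the S6 kinase substrate and 2 of the large subunit that the results return to. All 4 were picked among promoters that match the start motif counted below, and promoters that do not match are not shown. Each is printed with 10 bases before the start and 20 after it on the gene's strand (RefSeq, GRCm38.p6). Capitals mark the run of pyrimidines that begins at the start.
Rplp2 (chr7:141447641-141447670, plus strand): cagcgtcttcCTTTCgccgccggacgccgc
Rps6 (chr4:86857348-86857377, minus strand): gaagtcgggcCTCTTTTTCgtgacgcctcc
Rpl35 (chr2:39005112-39005141, minus strand): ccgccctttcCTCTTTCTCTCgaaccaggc
Rpl35a (chr16:33056472-33056501, plus strand): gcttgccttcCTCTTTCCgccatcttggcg
RefSeq promoters were matched for 63 of the 83 genes (75 promoters). A start at C followed by 4 pyrimidines was present in 14 of these 75 promoters (18.7%) and in 2.51% of all 32851 promoters, read on the gene's strand with the annotated start taken as exact. CCGGAAG, the core bound by ETS-family factors, was found on either strand within the 300 bases in 34.7% of the members' promoters and 8.86% of all, and CACGTG, the E-box bound by Myc, in 10.7% and 7.15%. These are matches of letters and not binding sites.

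Levels of ribosomal protein genes differed widely, and more distinct coding sequences went with higher levels. FPKM (the authors' counts per kb of exon, scaled to the size of the library), averaged over the 5 groups, ran from 0.33 for Rpl29 to 1648.0 for Rplp1, a range of 4959-fold among proteins that are needed in nearly equal number. The share of 50-base windows of the coding region that occur in no other annotated gene had a Spearman correlation of 0.71 with FPKM across the 83 genes, given as a description over genes that share libraries. The 31 genes with no window of their own had a median of 4.17 FPKM and a highest value of 103.8 (Rpl41, the shortest ribosomal protein), and 23 of them were under 10. The 13 genes with at least 50% of windows of their own had a median of 323 FPKM, and 11 of them were over 100. Just inside this boundary lay Rps27l at 51.7% and just outside it Rps14 at 48.3%. The boundary was chosen after the data were seen. Those 13 genes held 55.7% of all counts of ribosomal protein genes, and the 31 without own windows held 2.86%. No source used here gives the authors' handling of reads that match several genes, and the levels of members with few own windows are uncertain.

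**Figure D1:**
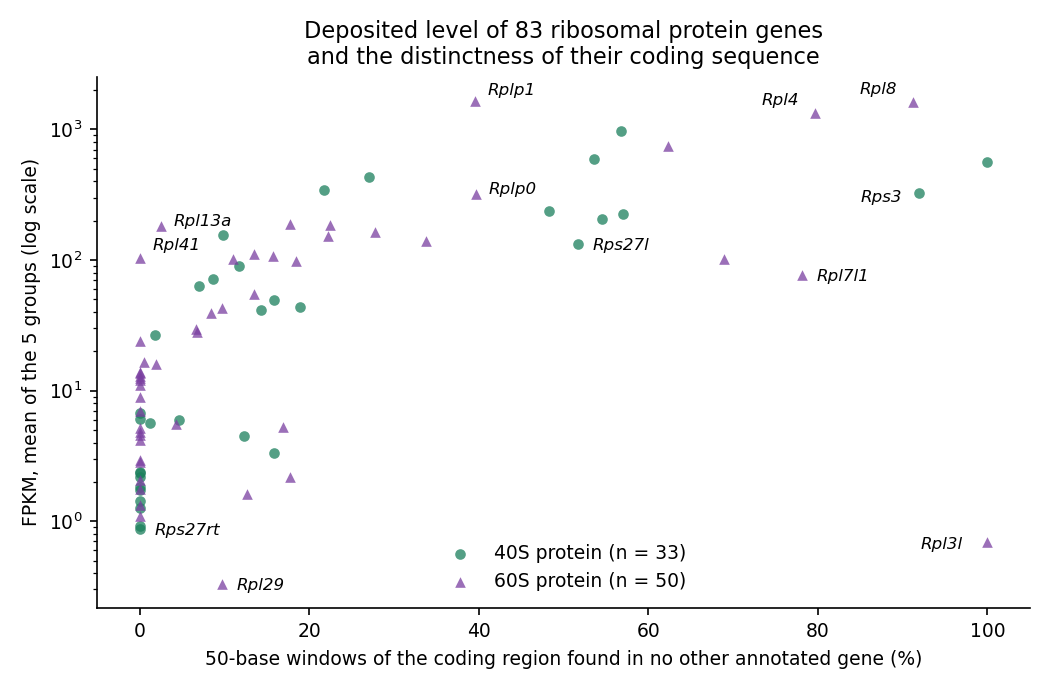
Each point is 1 of the 83 ribosomal protein genes, with the percentage of 50-base coding windows found in no other gene on the x axis and mean FPKM of the 5 groups on a log y axis; circles are 40S and triangles 60S proteins. Points at 0% reach from 0.88 (Rps27rt) to 103.8 FPKM (Rpl41), and all but Rpl3l of those at 50% or more lie at 76.4 FPKM or above.

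The highest levels belonged to Rplp1, an acidic protein of the stalk that recruits elongation factors (1648.0 FPKM), Rpl8, which lies beside the peptidyl transferase centre (1608.0), Rpl4, which lines the peptide exit tunnel (1322.0), Rps15, close to the decoding site (977), and Rpl32 (741). The lowest were Rpl29 (0.33), Rpl3l (0.69), Rps27rt (0.88), Rps29 (0.93) and Rpl24 (1.10). Rpl3l, the muscle paralog of Rpl3, stands apart from the others because all of its 1172 windows are its own, so its 13 to 35 counts per library are not shared with another annotated gene. Rps6, the classic substrate of the S6 kinases, was listed at 1.25 FPKM with 31 to 68 counts per library and no own window. In the deposited annotation 32 members have an exonic length over 2 times that of their principal mRNA, and 26 overlap a snoRNA gene, most often within an intron, so their counts can include other transcripts of the locus.

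Counts assigned to ribosomal protein genes made up a smaller part of the library in both mesoporous groups than in Control. The share was 1.56%, 1.62% and 1.55% in Stober50, 1.604%, 1.66% and 1.56% in Stober500, 1.43%, 1.48% and 1.42% in MSN500, 1.39%, 1.42% and 1.32% in MSN-PEG500 and 1.497%, 1.56% and 1.53% in Control. All 6 mesoporous libraries lay below all 3 Control libraries, while the Stober groups overlapped Control. Group means were 1.58% ± 0.04 for Stober50, 1.61% ± 0.05 for Stober500, 1.44% ± 0.03 for MSN500, 1.38% ± 0.05 for MSN-PEG500 and 1.53% ± 0.03 for Control (SD, n = 3 each). Both mesoporous groups were below Control among distinct and indistinct genes alike. Genes with at least 50% own windows took 0.804% ± 0.016 in MSN500, 0.768% ± 0.032 in MSN-PEG500 and 0.848% ± 0.020 in Control, and genes with none took 0.0409% ± 0.0002, 0.0395% ± 0.0008 and 0.0449% ± 0.0010 in those groups (SD, n = 3 each). The 194 annotated pseudogenes in the count table that share a coding window with a member took 0.0879% to 0.0924% in MSN500, 0.0875% to 0.0914% in MSN-PEG500 and 0.0948% to 0.0991% in Control.

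**Figure D2:**
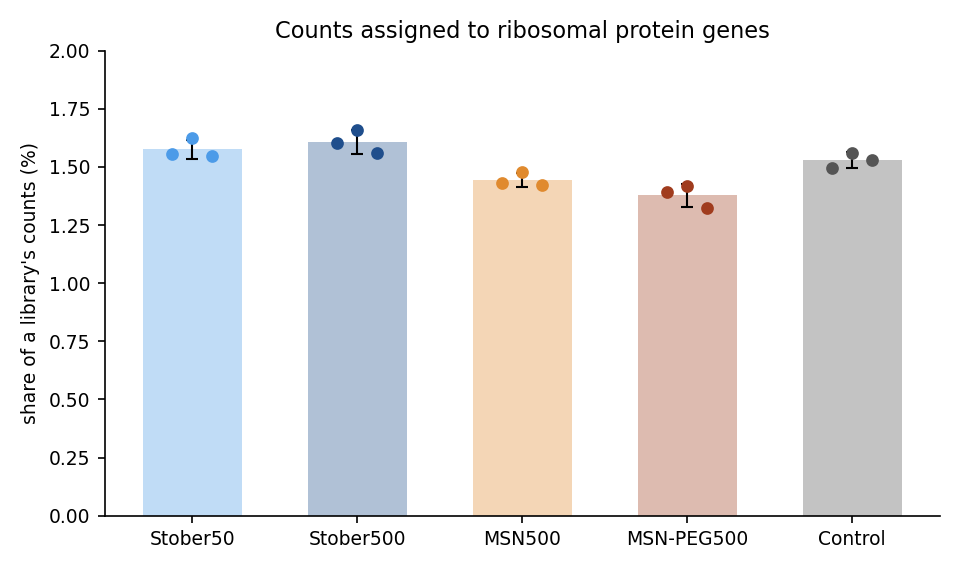
Percentage of each library's counts assigned to the 83 ribosomal protein genes, by group; points are libraries, bars the mean and whiskers the SD (n = 3 each). The 6 libraries of MSN500 and MSN-PEG500 lie between 1.32% and 1.48%, under the lowest Control library at 1.497%.

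Changes of single genes were small. In an F-test across the 5 groups 45 of the 82 genes tested had an adjusted p under 0.05, where 49.7% of all 12798 genes tested did. Adjusted p values given here come from the quasi-likelihood test of edgeR, adjusted by Benjamini-Hochberg over those 12798 genes. Exceptions are those named as from the alternatives or from the authors' deposited table. The smallest adjusted p in this test was that of Rpl13 (3.86e-06). In the 7 pairwise comparisons no member moved by 1 log2 unit, and the widest fitted change was that of Rps27rt in MSN-PEG500 against Control (-0.75, not past the threshold, at a few counts per library).

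**Figure D3:**
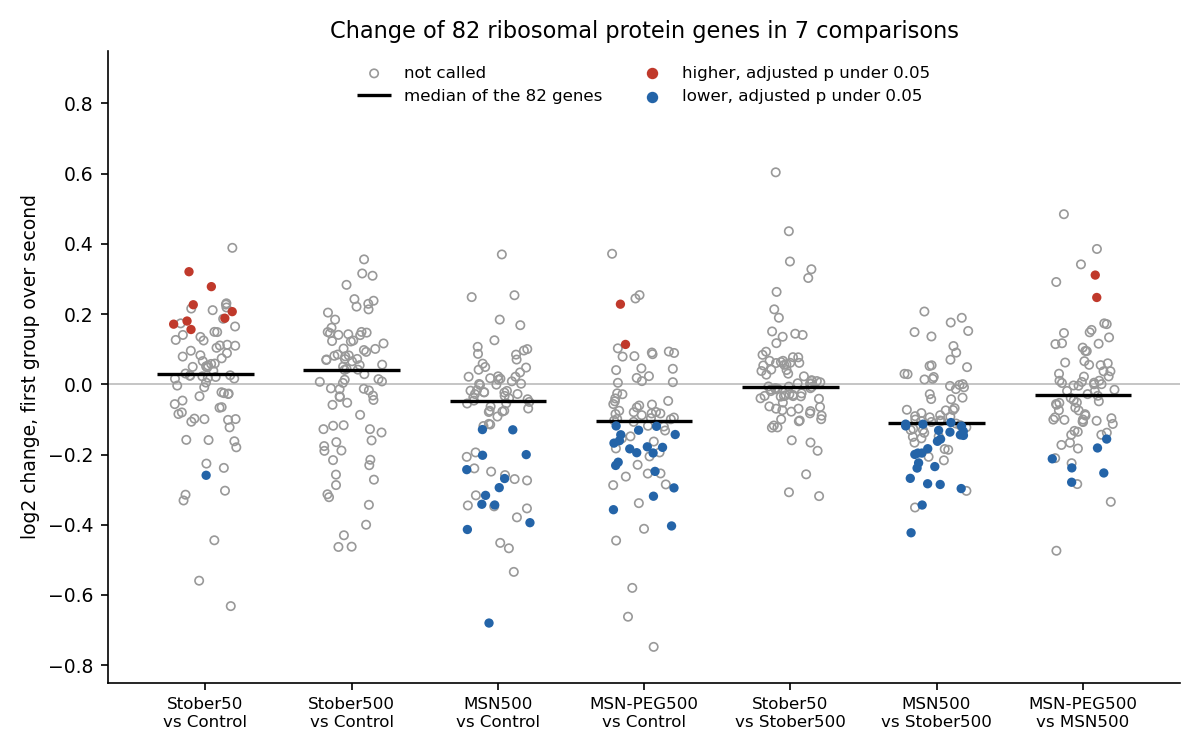
Log2 change of each of the 82 genes tested (first group over second) in the 7 comparisons; filled red and blue points passed an adjusted p under 0.05 in edgeR's test as higher or lower, open points did not, and black bars are medians. Called genes lie below 0 in the comparisons of MSN500 with Control and with Stober500, and mostly above 0 for Stober50 against Control.

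Pegylated mesoporous silica was compared with Control for the response to the coated particle. In MSN-PEG500 cells 19 ribosomal protein genes fell and 2 rose, against 16.9% of all genes tested that fell and 17.5% that rose. The median log2 change was -0.11 for the 82 genes and -0.01 for all genes. Without overlap of the libraries, 25.6% of members lay below Control and 3.66% above, against 21.3% and 21.4% of all genes tested. The genes of all 3 stalk proteins were among those called lower. Of the 33 small-subunit genes tested 6 fell and 1 rose, and of the 49 large-subunit genes 13 fell and 1 rose. Among the 13 genes with mostly own windows 5 fell, Rps9, Rps15, Rpl22 and Rpl7l1 among them, and none rose. Without MSN-PEG500 replicate 3 the number that fell was 12, of which 10 were among the 19. With upper quartile scaling 30 fell and 1 rose.

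The stalk is the flexible arm of the large subunit on which GTPase factors dock. Rplp1 was at 720.5, 728.1 and 664.0 CPM in MSN-PEG500 libraries, against 815, 950.0 and 827 CPM in Control libraries. The groups did not overlap, and the log2 change was -0.29 ± 0.05 (SE, adjusted p = 3.18e-05). Rplp2, its dimer partner, had 254.8, 254.9 and 200.5 CPM in MSN-PEG500 and 270.9, 330.6 and 284 CPM in Control, a log2 change of -0.32 ± 0.09 (adjusted p = 0.0194). The 3 treated libraries lay below all Control libraries, and replicate 3 was the lowest. Rplp0, the anchor of the stalk on ribosomal RNA, had 495, 509.7 and 472 CPM in MSN-PEG500, against 517, 559 and 527 CPM in Control (log2 change -0.12 ± 0.04, adjusted p = 0.0391). The call of Rplp0 was lost in 7 of 15 alternatives, with an adjusted p up to 0.274. Leaving out MSN-PEG500 replicate 3 was one of them. That of Rplp2 was lost without Control replicate 2 only, while the call of Rplp1 held in all 15.

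In the small subunit, Rps15a had 284.3, 280.3 and 286.5 CPM in MSN-PEG500 and 319.3, 333.6 and 309.9 CPM in Control, with no overlap. Its log2 change was -0.18 ± 0.04 (adjusted p = 0.000479). Rps9, at the entry of the mRNA channel, had 519, 539 and 480.3 CPM in MSN-PEG500, against 564, 631 and 567 CPM in Control (log2 change -0.20 ± 0.05, adjusted p = 0.00131). These groups did not overlap either. Rps15 fell by 0.18 on the log2 scale and Rps4x by 0.14. Rps15 was not called without MSN-PEG500 replicate 3 or Control replicate 2, and Rps4x was not called without MSN-PEG500 replicate 1. Rps3a1, a protein of the small-subunit platform, was the small-subunit gene that rose, with 91.3, 93.0 and 87.6 CPM in MSN-PEG500 and 84.5, 85.7 and 81.0 CPM in Control (log2 change 0.11 ± 0.04, adjusted p = 0.0351), a call lost in 6 of 15 alternatives.

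In the large subunit the widest falls were in Rpl36a (-0.40 ± 0.15, adjusted p = 0.036, a call lost in 6 of 15 alternatives), at only 3.53, 3.00 and 2.61 CPM in MSN-PEG500 and 3.41, 4.39 and 4.45 CPM in Control, and in Rpl9 (-0.36 ± 0.09, adjusted p = 0.00225). Rpl9 had 11.1, 10.6 and 11.4 CPM in MSN-PEG500 and 14.1, 13.02 and 15.4 CPM in Control. The groups overlapped for Rpl36a and not for Rpl9, and neither gene has a coding window of its own. Rpl7a, host of several snoRNAs, fell by 0.25 on the log2 scale with overlapping groups, at 46.6, 47.1 and 36.6 CPM in MSN-PEG500 and 47.0, 52.8 and 55.3 CPM in Control. Without MSN-PEG500 replicate 3, the lowest of these libraries, Rpl7a was not called, nor was it without Control replicate 2 or Control replicate 3. Rpl7l1, a paralog of Rpl7 whose coding windows are 78.1% its own, had 185.7, 185.5 and 183.0 CPM in MSN-PEG500 and 202.2, 201.6 and 198.2 CPM in Control, a log2 change of -0.12 ± 0.03 (adjusted p = 0.00777). This was a narrow fall with no overlap of the groups. Rpl10a, Rpl18, Rpl6, Rpl41, Rpl37 and Rpl22 fell by 0.22, 0.19, 0.18, 0.17, 0.16 and 0.13 on the log2 scale. Without MSN-PEG500 replicate 3, Rpl10a, Rpl18, Rpl6 and Rpl37 were not called, and Rpl10a was called in 8 of 15 alternatives. Rpl18, Rpl6, Rpl37 and Rpl22 were not called without Control replicate 2, and Rpl6 was not called without Control replicate 3 either. Rpl31, at the rim of the exit tunnel, rose, with 14.3, 13.9 and 15.04 CPM in MSN-PEG500 and 11.7, 11.9 and 13.4 CPM in Control (log2 change 0.23 ± 0.08, adjusted p = 0.024, lost without MSN-PEG500 replicate 3, Control replicate 1 or Control replicate 2). When each library was left out in turn, 7 of the 19 falls stayed called throughout, those of Rplp1, Rps9, Rps15a, Rpl7l1, Rpl9 and Rpl41 among them, and neither rise did. Leaving out MSN-PEG500 replicate 1, or any one of the Control libraries, gave 1 member called higher. Without Control replicate 1 that member was neither Rpl31 nor Rps3a1.

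**Figure D4:**
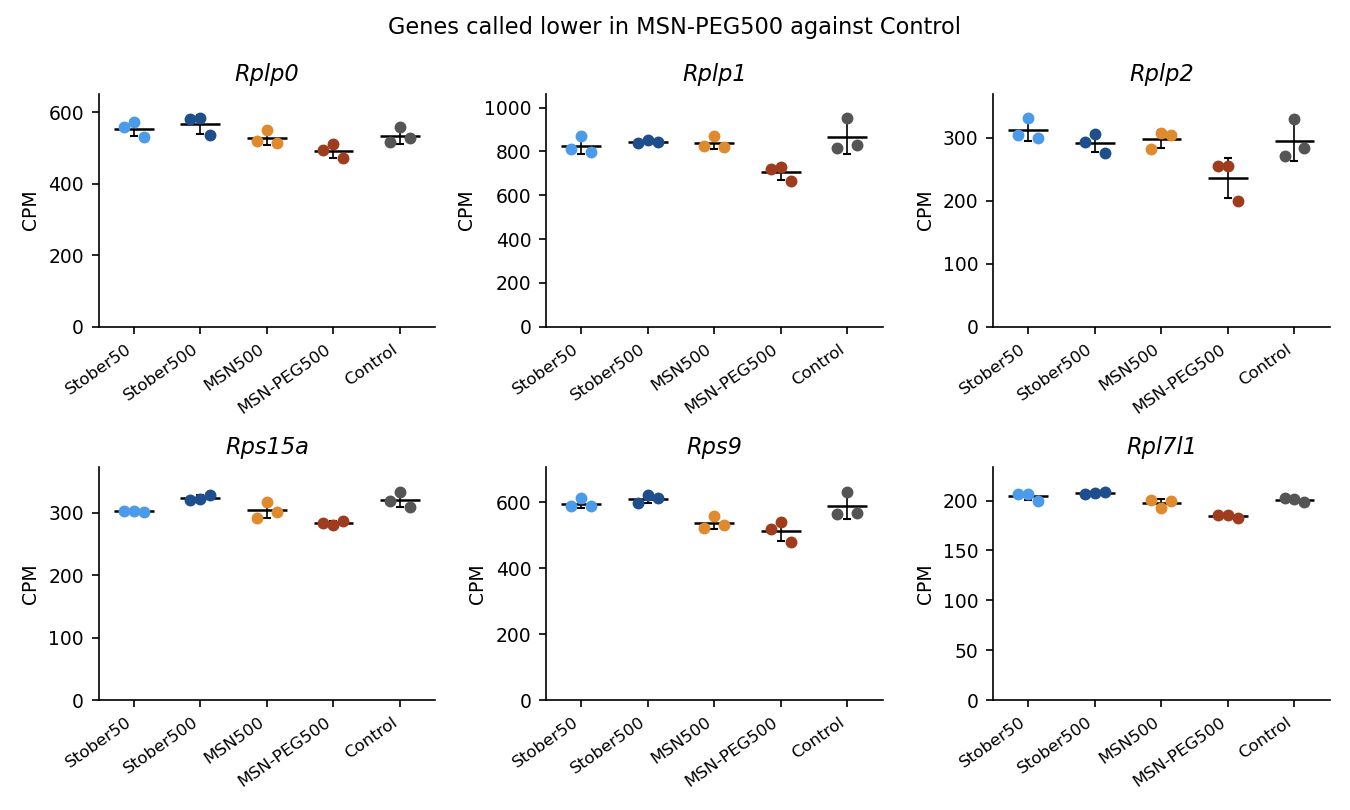
CPM of 6 ribosomal protein genes in every library, by group; points are libraries, black lines means and whiskers the SD (n = 3 each), and y axes start at 0. The 6 genes were picked among those called lower in MSN-PEG500 against Control. Their 3 MSN-PEG500 libraries lie below the 3 Control libraries, as in 25.6% of members and 21.3% of all genes tested. For all but Rps9 they also lie below all other libraries.

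Bare mesoporous silica was compared with Control for the response to the uncoated particle. In MSN500 cells 13 genes fell and 0 rose in edgeR's test, against 21.2% of all genes tested that fell and 21.6% that rose. At an unadjusted p under 0.05, 19 fell (23.2%) and 3 rose (3.66%), against 24.7% and 24.8% of all genes tested. The 19 falls are near that share. DESeq2 called 11 lower and 0 higher. Without overlap of the libraries, 23.2% of members lay below Control and 6.1% above, against 26.3% and 26.5% of all genes tested. The median log2 change was -0.05 for the 82 genes and 0.00 for all genes (-0.004). Of the 49 large-subunit genes tested 11 fell, near the share of all genes, and of the 33 small-subunit genes 2 fell. The falls were 7 of the 31 genes without an own window, 5 of the 38 tested in between and 1 of the 13 with mostly own windows (Rps9).

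Rpl35a, mutated in some patients with Diamond-Blackfan anaemia, had 5.56, 5.49 and 6.56 CPM in MSN500, against 10.5, 7.97 and 9.81 CPM in Control. The log2 change of -0.68 ± 0.14 (adjusted p = 0.000238) was the widest among the called members of any comparison, and the groups did not overlap. Rpl3, at the peptidyl transferase centre, had 6.20, 6.28 and 6.34 CPM in MSN500 and 8.37, 7.71 and 8.70 CPM in Control (log2 change -0.39 ± 0.09, adjusted p = 0.00112). Rps27a encodes a ribosomal protein fused to ubiquitin. Its libraries were at 12.2, 11.3 and 12.1 CPM in MSN500 and 15.8, 14.5 and 14.97 CPM in Control (log2 change -0.34 ± 0.10, adjusted p = 0.00624). Rpl9 was at 9.99, 11.7 and 11.7 CPM in MSN500, against 14.1, 13.02 and 15.4 CPM in Control (log2 change -0.34 ± 0.09, adjusted p = 0.00228). None of these 3 genes had libraries of the 2 groups that overlapped. Rpl36a had a log2 change of -0.41 ± 0.15 (adjusted p = 0.024) with overlapping groups. It was at 3.53, 2.84 and 2.84 CPM in MSN500 and 3.41, 4.39 and 4.45 CPM in Control. Its call held in 10 of 15 alternatives (adjusted p up to 0.112) and was lost with DESeq2.

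The other genes that fell were Rpl10a, Rpl10, which joins the subunit in the last steps of its maturation, Rpl5, which carries 5S ribosomal RNA and can bind Mdm2, Rpl27a, Rpl30, Rpl12, Rpl7 and Rps9, by 0.32, 0.29, 0.27, 0.24, 0.20, 0.20, 0.13 and 0.13 on the log2 scale. Rpl11, the partner of Rpl5 on 5S ribosomal RNA, was at 6.68, 7.07 and 7.71 CPM in MSN500 and 8.11, 8.37 and 9.15 CPM in Control and did not pass (adjusted p = 0.0605), although the groups did not overlap. Rpl7 and Rps9 are the abundant genes of this set. Rps9 had 522.5, 557.7 and 531 CPM in MSN500 and 564, 631 and 567 CPM in Control, below Control in all 3 libraries, and its call was lost without MSN500 replicate 1, MSN500 replicate 3 or Control replicate 2. Rpl30 and Rpl12 were called in 7 and 12 of 15 alternatives (adjusted p up to 0.185 and 0.303), and DESeq2 did not call Rpl30. With each library left out in turn, Rpl10, Rpl10a, Rpl27a, Rpl3, Rpl35a, Rpl9 and Rps27a stayed called throughout. Leaving out replicate 2 or 3 of MSN500, or replicate 1 of Control, gave 1 member higher, and leaving out replicate 2 or 3 of Control gave 2. Exonic length moved with the change across all genes in this comparison (Spearman correlation -0.11 over genes), and members are short, with a median exonic length of 1434 bases against 3372 in all genes tested. With the length trend removed 20 members fell.

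**Figure D5:**
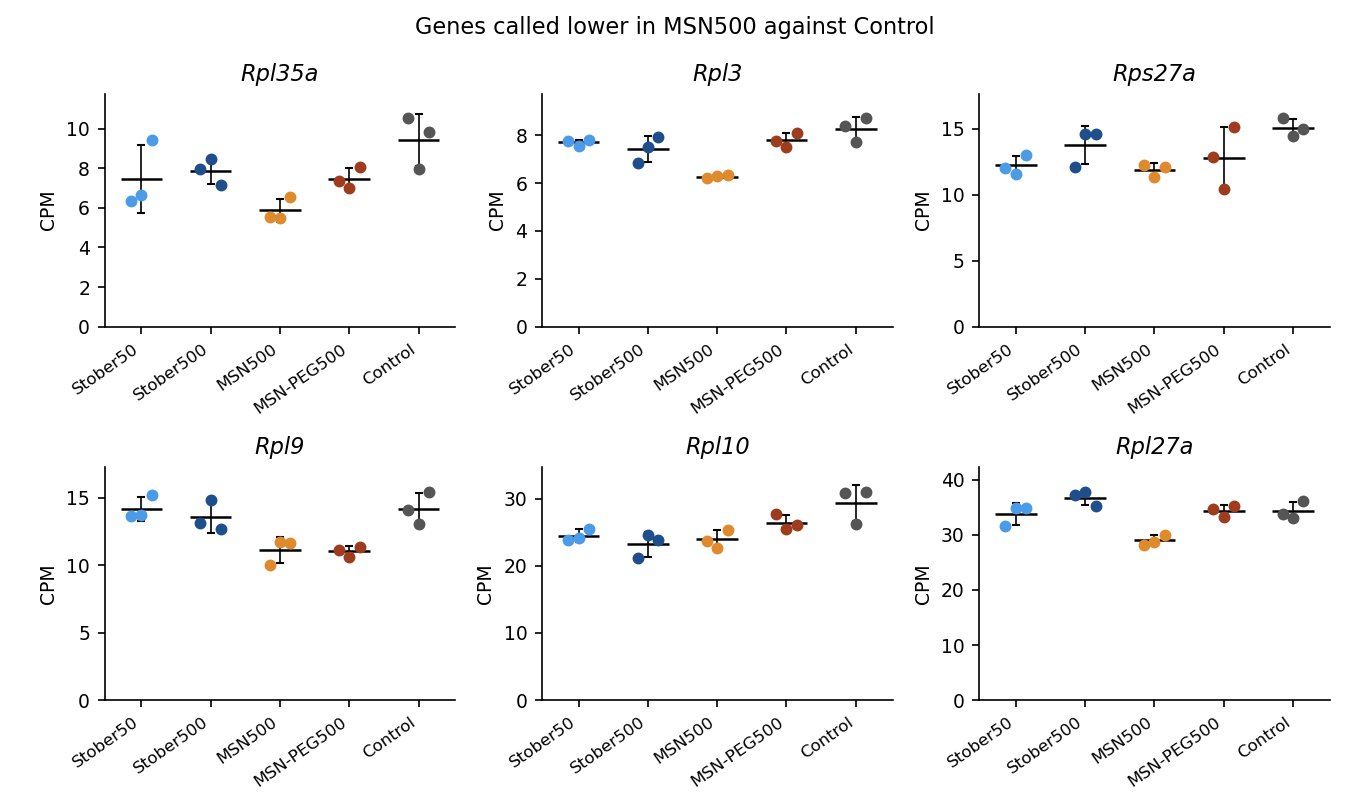
CPM of 6 ribosomal protein genes in every library, by group; points are libraries, black lines means and whiskers the SD (n = 3 each), and y axes start at 0. The 6 genes were picked among those called lower in MSN500 against Control. Their 3 MSN500 libraries lie below the 3 Control libraries, as in 23.2% of members and 26.3% of all genes tested. For Rpl27a and Rpl3 they also lie below all other libraries.

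MSN500 and MSN-PEG500 were both set against the same Control libraries, so their values are given side by side. Rpl9 changed by -0.34 ± 0.09 in MSN500 and -0.36 ± 0.09 in MSN-PEG500, and Rps9 by -0.13 ± 0.05 and -0.20 ± 0.05. The direct comparison of the coated with the bare particle tests the difference. In MSN-PEG500 against MSN500, 6 members were lower and 2 higher, against 3.92% and 4.1% of all genes tested, with a median log2 change of -0.03 for the members and 0.00 for all genes (0.002). Longer genes were higher across the whole table in this comparison (Spearman correlation of log2 change with exonic length 0.27 over genes). With the length trend removed the median of the members was 0.02, 3 of the 6 lower calls were kept, and Rpl27 and Rpl6 were among those lost. The 13 genes with mostly own windows all had a log2 change below 0 (median -0.10), and none of them was called.

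Rplp1 had 720.5, 728.1 and 664.0 CPM in MSN-PEG500, against 825, 869.7 and 822.0 CPM in MSN500, a log2 change of -0.25 ± 0.05 (adjusted p = 0.0025). Rpl41 had 109.3, 111.6 and 100.5 CPM in MSN-PEG500 and 128.5, 130.6 and 120.0 CPM in MSN500 (log2 change -0.24 ± 0.05, adjusted p = 0.00243). Both genes stayed called with each library left out in turn, and their groups did not overlap. Rpl27, Rpl18 and Rpl6 were lower as well, with log2 changes of -0.28, -0.21 and -0.18. None of these 3 was called without MSN-PEG500 replicate 3, and they passed in 9, 11 and 8 of 15 alternatives. Rpl27a went the other way, with 34.8, 33.3 and 35.1 CPM in MSN-PEG500 and 28.2, 28.8 and 30.0 CPM in MSN500 (log2 change 0.25 ± 0.06, adjusted p = 0.00889, lost without MSN500 replicate 1). Rpl3 was higher as well (0.31 ± 0.10, adjusted p = 0.0442), and its call was lost without any one of the 6 libraries. The number lower was 3 without MSN500 replicate 1, 2 without MSN500 replicate 2, 3 without MSN500 replicate 3 and 3 without MSN-PEG500 replicate 3.

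Mesoporous and nonporous particles of 500 nm were compared through MSN500 against Stober500. Here 25 members fell and 0 rose in edgeR's test, the largest number of the 7 comparisons, against 19.5% of all genes tested that fell and 19.9% that rose. At an unadjusted p under 0.05, 33 fell (40.2%) and 0 rose, against 23.4% and 23.1% of all genes tested. DESeq2 called 25 lower and 0 higher. Without overlap of the libraries, 36.6% of members lay below Stober500 and 1.22% above, against 25.0% and 24.7% of all genes tested. The median log2 change was -0.11 for the 82 genes and 0.00 for all genes (-0.005). The 25 genes were 10 of the small and 15 of the large subunit, and 6 of the 13 genes with mostly own windows were among them, including Rpl4, Rps3, Rps9, Rpl32 and Rpl22. With MSN500 replicate 3 left out 12 genes fell, and with MSN500 replicate 1 left out 14 fell. With Stober500 replicate 3 left out 1 rose.

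Rpl4 was at 1786.0, 1848.0 and 1768.0 CPM in MSN500, against 1998.0, 2030.0 and 1946.0 CPM in Stober500, with no overlap. Its log2 change was -0.15 ± 0.04 (adjusted p = 0.00187). Rpl13a, which in human myeloid cells silences inflammatory mRNAs once phosphorylated and released from the ribosome, had 505.2, 543.2 and 510.2 CPM in MSN500 and 593, 618 and 574 CPM in Stober500 (log2 change -0.20 ± 0.04, adjusted p = 0.000785). These groups did not overlap. Rps3, at the mRNA entry and with a further role in DNA repair, had 1419.0, 1495.0 and 1395.0 CPM in MSN500 and 1548.0, 1622.0 and 1492.0 CPM in Stober500 (log2 change -0.11 ± 0.04, adjusted p = 0.0297), with an overlap of 1 library on each side. Rps19, the gene most often mutated in Diamond-Blackfan anaemia, had 196, 201 and 199 CPM in MSN500 and 219, 222 and 202 CPM in Stober500 (log2 change -0.11 ± 0.04, adjusted p = 0.0447), with no overlap. Calls of Rps3 and Rps19 were lost in 6 and 9 of 15 alternatives.

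The widest falls in this comparison were in Rpl35a (-0.42 ± 0.14), Rpl27a (-0.34 ± 0.06), Rpsa (-0.30 ± 0.09), Rpl39 (-0.29 ± 0.05) and Rpl9 (-0.28 ± 0.09). Rpl27a had 28.2, 28.8 and 30.0 CPM in MSN500 and 37.3, 37.8 and 35.2 CPM in Stober500 (adjusted p = 1.62e-05). Rpsa, known also as the laminin receptor, had 9.14, 11.1 and 9.22 CPM in MSN500 and 12.8, 12.3 and 10.9 CPM in Stober500 (adjusted p = 0.012). Only Rpsa among these 5 had groups that overlapped. Rpl39, a short protein of the exit tunnel, had 75.03, 73.8 and 67.9 CPM in MSN500 and 91.0, 90.2 and 82.4 CPM in Stober500 (adjusted p = 9.6e-05). With each library left out in turn, Rpl13, Rpl13a, Rpl23, Rpl27a, Rpl35, Rpl39, Rpl4, Rps20 and Rps9 stayed called throughout. Across all genes the change had a Spearman correlation of -0.02 with exonic length, and 26 members fell with the length trend removed.

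The small nonporous particle was compared with Control for the response to Stober50. In Stober50 cells 8 members rose and 1 fell, against 3.85% and 3.72% of all genes tested, and the median log2 change was 0.03 for the members and 0.00 for all genes (-0.001). None of the 13 genes with mostly own windows was called, although 12 of the 13 had a log2 change above 0. Rpsa had 11.7, 12.3 and 11.4 CPM in Stober50, against 9.46, 9.92 and 8.85 CPM in Control (log2 change 0.32 ± 0.09, adjusted p = 0.0307). Rpl7a had 59.4, 67.6 and 60.8 CPM in Stober50 and 47.0, 52.8 and 55.3 CPM in Control (log2 change 0.28 ± 0.07, adjusted p = 0.0277). In both genes all Stober50 libraries were above all Control libraries. Of the members 26.8% lay above Control without overlap and 7.32% below, against 13.9% and 13.4% of all genes tested. Rpl13 rose by 0.23 ± 0.06 on the log2 scale (adjusted p = 0.0126), Rpl39 by 0.21 ± 0.05 (adjusted p = 0.016) and Rps14, the gene lost in the human 5q deletion syndrome, by 0.19 ± 0.05 (adjusted p = 0.0343). Rps26, Rps20 and Rpl35 rose by 0.18, 0.17 and 0.16.

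Rpl10 was the gene that fell with Stober50, at 23.9, 24.1 and 25.6 CPM in Stober50 and 30.9, 26.3 and 31.0 CPM in Control (log2 change -0.26 ± 0.07, adjusted p = 0.0195). No rise stayed called when each library was left out in turn. Leaving out Stober50 replicate 2 left 0 rises, and leaving out Control replicate 1 left 1. Without Control replicate 2 there were 4 rises, 3 of them among the 8. The fall of Rpl10 was lost when replicate 1 or 2 of Stober50, or replicate 1 or 3 of Control, was left out, and 2 members fell without Stober50 replicate 3 or Control replicate 2. Shorter genes were higher across the whole table in this comparison (Spearman correlation of log2 change with exonic length -0.26 over genes), and with the length trend removed 4 members rose, 3 of them among the 8, and 2 fell. With upper quartile scaling 6 rose and 2 fell.

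With the large nonporous particle no member passed the test. Stober500 against Control gave 0 members higher and 0 lower in edgeR's test, against 0.0% and 0.00781% of all genes tested. At an unadjusted p under 0.05, 19 were higher (23.2%) and 4 lower (4.88%), against 5.83% and 6.09% of all genes tested. DESeq2 called 4 higher and 1 lower. The median log2 change was 0.04 for the members and 0.00 for all genes (0.003), and all 13 genes with mostly own windows had a log2 change above 0, from 0.01 to 0.32, against 8 of the 31 with no own window. Rpl13 had 34.4, 37.1 and 34.5 CPM in Stober500, against 27.0, 29.5 and 29.1 CPM in Control, with a log2 change of 0.31 ± 0.06 that did not pass (adjusted p = 0.0545, and up to 0.179 in the alternatives). Rpl39 had 91.0, 90.2 and 82.4 CPM in Stober500 and 76.1, 68.0 and 72.8 CPM in Control (log2 change 0.28 ± 0.05, adjusted p = 0.0545). For both genes the groups did not overlap. Of the members 20.7% lay above Control without overlap and 3.66% below, against 8.05% and 7.84% of all genes tested. Without Stober500 replicate 3, 9 members were called higher and 1 lower, while leaving out Control replicate 1 gave 1 higher and leaving out Control replicate 2 gave 1 lower. Exonic length had a Spearman correlation of -0.26 with the change over all genes here too.

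Particle size was compared through Stober50 against Stober500. In edgeR's test 0 members were higher and 0 lower, against 1.41% and 0.828% of all genes tested. At an unadjusted p under 0.05, 3 were higher (3.66%) and 5 lower (6.1%), against 7.6% and 6.42% of all genes tested. DESeq2 called 0 in either direction, and the median log2 change was -0.01. Fitted log2 changes ran from -0.32 to 0.60, the wide values belonging to genes of few counts. Rpl4 was at 1962.0, 1977.0 and 1895.0 CPM in Stober50 and 1998.0, 2030.0 and 1946.0 CPM in Stober500, and Rplp1 at 810.3, 868 and 799 CPM in Stober50 and 836.5, 851 and 844 CPM in Stober500. The groups overlapped for both genes.

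Paralog pairs were compared on FPKM, since lengths differ. Rpl22l1 was at 112 ± 3.37 FPKM in Stober50, 114.5 ± 13.6 in Stober500, 99.1 ± 6.18 in MSN500, 98.7 ± 3.34 in MSN-PEG500 and 109 ± 7.41 in Control (SD, n = 3 each). Rpl22, which it can replace in the ribosome, was at 104 ± 4.24, 110.1 ± 2.81, 95.9 ± 2.05, 94.1 ± 1.63 and 107 ± 3.37 FPKM in the same groups. The pair stood at like levels and was lowest in both mesoporous groups, and of the 2 Rpl22 was called lower in MSN-PEG500 against Control and in MSN500 against Stober500. Rpl7l1 averaged 76.4 FPKM over the groups and Rpl7 184.7. Rpl36al, the retrogene copy of Rpl36a, averaged 23.8 FPKM and Rpl36a 2.06, and neither has a coding window of its own. Rps27l, a p53 target, averaged 132 FPKM and was called in none of the 7 comparisons, from 102.8 to 106.3 CPM in MSN-PEG500 and from 95.7 to 107.7 CPM in Control. Rpl3l averaged 0.69 FPKM, against 5.50 for Rpl3, and was not called in any comparison. Rps6 was not called in any comparison either, at 2.35, 2.19 and 2.19 CPM in MSN-PEG500 and 1.85, 1.46 and 1.92 CPM in Control.

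Counts in other lists of translation genes are read against the shares of all genes tested, 17.5% higher and 16.9% lower in MSN-PEG500 against Control and 21.6% higher and 21.2% lower in MSN500 against Control. Of 22 elongation factors and other TOP mRNAs tested 8 fell and 0 rose in MSN-PEG500 against Control and 5 fell and 0 rose in MSN500 against Control, with median log2 changes of -0.08 and 0.00 (0.003). The 5 falls in MSN500 are near the share of all genes. Hnrnpa1 fell by 0.48 ± 0.07 on the log2 scale in MSN-PEG500, at 34.8 ± 3.06 CPM in MSN-PEG500 and 48.5 ± 3.23 CPM in Control (SD, n = 3 each). Eif4b, an initiation factor with a TOP mRNA, fell by 0.39 ± 0.04 in MSN500 against Control, at 582 ± 24.0 CPM in MSN500 and 763 ± 22.3 CPM in Control.

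Translation initiation factors and ribosome biogenesis factors had more rises than falls in MSN500 cells, where no ribosomal protein gene was called higher by edgeR; the difference between the lists was not tested. Of 31 initiation factors 13 rose and 1 fell in MSN500 against Control (median log2 change 0.11), and 6 rose and 0 fell in MSN-PEG500 against Control (median 0.06). Eif1a rose by 0.39 ± 0.05 in MSN500 and Eif1b by 0.31 ± 0.05, whereas the helicase gene Eif4a2 fell by 0.33 ± 0.05. Of 77 ribosome biogenesis factors 23 rose and 7 fell in MSN500 against Control (median 0.07), and 13 rose and 15 fell in MSN-PEG500 against Control (median 0.01). Rrs1, a factor of large-subunit assembly, was at 108 ± 2.52 CPM in MSN500 and 78.1 ± 1.67 CPM in Control (SD, n = 3 each), with a log2 rise of 0.47 ± 0.04 (adjusted p = 2.33e-10). It was lower in MSN-PEG500 than in MSN500 (-0.28 ± 0.04, adjusted p = 5.65e-05). Fbl, the methyltransferase of the box C/D snoRNP, fell by 0.89 ± 0.16 in MSN-PEG500 against Control, at 29.3 ± 2.16 CPM in MSN-PEG500 and 54.3 ± 12.96 CPM in Control.

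Of 14 RNA polymerase I genes, which serve the transcription of ribosomal RNA, 2 rose and 3 fell in MSN500 against Control, near or below the shares of all genes, and 1 rose and 4 fell in MSN-PEG500 against Control. Polr1a, its largest subunit, fell by 0.31 ± 0.05 in MSN500, and Ubtf, its upstream binding factor, by 0.28 ± 0.04 in MSN-PEG500. Rrn3 rose by 0.19 ± 0.04 in MSN500 and 0.18 ± 0.04 in MSN-PEG500. Of 24 regulators of mTORC1 and of TOP mRNAs 7 rose and 9 fell in MSN500 against Control, and 6 rose and 9 fell in MSN-PEG500 against Control. Mxd4, an antagonist of Myc, fell by 1.34 ± 0.14 in MSN500 and 1.00 ± 0.13 in MSN-PEG500, and Deptor, an inhibitor of mTOR, by 0.84 ± 0.07 in MSN500. Myc rose by 0.55 ± 0.15 in MSN500 (adjusted p = 0.00526), at 11.8 ± 1.67 CPM in MSN500 and 8.14 ± 0.57 CPM in Control (SD, n = 3 each). Sesn1 fell by 0.68 ± 0.05 in MSN-PEG500. In Stober50 against Control, where 3.85% of all genes rose and 3.72% fell, 3 of the 24 regulators fell and 0 rose, with Deptor lower by 0.29 ± 0.06 and Sesn1 by 0.24 ± 0.05 on the log2 scale. Of the other lists in that comparison, 2 biogenesis factors rose and 0 fell, and 1 initiation factor rose (Eif1b) and 1 fell (Eif4a2). In addition 1 polymerase I gene fell (Polr1a) and 1 elongation or TOP gene fell (Hnrnpa1). The calls of Eif1b, Polr1a and Eif4a2 held in only 6, 8 and 11 of 15 alternatives (adjusted p up to 0.27, 0.184 and 0.133). That of Hnrnpa1 held in all 15. In Stober500 against Control none of these 5 lists had a called gene.

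In the authors' deposited table, at an adjusted p under 0.05, 20 of the 83 members were higher in Control than in MSN-PEG500 and 2 lower, and 11 were higher in Control than in MSN500 and 0 lower. For Stober50 the authors' deposited table has 2 members higher in Control and 13 lower, and for Stober500 0 higher and 7 lower. It gives 0 members higher in MSN500 than in Stober500 and 25 lower. The share of all genes that passed in the authors' table is not given here. These counts alone therefore do not set the members apart from other genes. In edgeR's test 21.2% of all genes tested fell in MSN500 against Control. The authors' deposited exon score passed the same threshold for 1 member in 1 comparison, Rps14 in Control over MSN-PEG500, with an exon log2 ratio of 1.31. That score does not model replicates, per the column descriptions.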

How the data were processed

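RNA libraries of RAW264.7 cells were made with Illumina TruSeq RNA kits and read as single reads of 50 bases, per the labels' protocols. The submitters' processing notes name Novoalign 2.08.03, limma 3.28.21, DESeq2, GRCm38 and mm10, with no role for each. The deposited counts are whole numbers per gene that the authors did not normalize, per the file headers. The deposited FPKM values are those counts per kb of exon, scaled to library size, per the column descriptions. The authors' deposited log2 ratios and score, -10 log10 of an adjusted p, come from DESeq2.

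Of 13342 genes, filterByExpr left 12798. TMM scaling (factors 0.974 to 1.02) and the two-sided quasi-likelihood F-test of edgeR 4.0.16 (R 4.3.3) were applied to all 15 libraries with group means, and calls were made at an adjusted p under 0.05 over all genes tested. SE is the size of the log2 change over the square root of F. The script was tested on simulated data. Alternatives were DESeq2 1.42.0, other scalings, no filter, removal of a length trend, a replicate block and leaving out each library. Library totals of 17683003 to 27253289 counts put 3 counts, the limit that a count of 0 allows, at 0.11 to 0.17 CPM (counting error only). Separate cultures per library are not stated, and p-values cover the spread between libraries, possibly technical. Coding windows of 50 bases were compared on both strands with all GENCODE M21 transcripts.

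Named genes are, per comparison, the 5 called members with the largest rise and the 5 with the largest fall, the stalk proteins, paralogs and a few proteins with known extra roles, the 5 highest and lowest by FPKM, and at most 2 risen and 2 fallen genes of each other list. Other members named were chosen after their values were seen. The members and lists were chosen with earlier results of these data known. Results of some genes are not reported here.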

Additional observations from a re-analysis of the deposited data

How the results depend on the processing

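Counts of members called are given higher then lower, and the share of all genes called under each alternative is not given here. Counts in the other gene lists also moved in some alternatives. Leaving out each library in turn gave 1 to 2 higher and 12 to 19 lower for MSN-PEG500 against Control, 0 to 2 and 9 to 13 for MSN500 against Control, 0 to 1 and 12 to 25 for MSN500 against Stober500, 0 to 1 and 2 to 9 for MSN-PEG500 against MSN500, 0 to 9 and 0 to 2 for Stober50 against Control, and 0 to 9 and 0 to 1 for Stober500 against Control. Upper quartile scaling gave 1 higher and 30 lower for MSN-PEG500, 2 lower for Stober50 and 2 higher for Stober500, each against Control. DESeq2 gave 4 higher and 1 lower for Stober500 against Control and 1 higher for MSN-PEG500 against MSN500. Removal of the length trend gave 4 higher and 2 lower for Stober50 and 20 lower for MSN500, each against Control. Fitting only the 2 groups compared gave 3 higher for MSN500 and 2 lower for Stober50 against Control, and 1 higher in each of MSN500 against Stober500 and MSN-PEG500 against MSN500. Scaling without the members and no filter each gave 1 higher for MSN500 against Control. Libraries with the same replicate number had correlations of -0.164 to 0.0589 in their deviations from the group means. From 0 of 6 libraries (Stober500 against Control) to 5 of 6 (Stober50 against Control) correlated best with their own number. This is only a hint from the data, and whether replicate numbers pair the libraries is not known. With the replicate block 2 were higher and 1 lower for Stober500 against Control and 2 lower for Stober50 against Control. The block with the length trend removed gave 5 higher and 2 lower for Stober50, 1 and 1 for Stober500, 21 lower for MSN500, each against Control, and 4 higher for MSN-PEG500 against MSN500. The cause of these moves was not tested. No called member changed direction in the alternatives run. Median changes near 0 crossed it: with the length trend removed that of MSN-PEG500 against MSN500 was 0.0243, with the block as well that of Stober50 against Control was -0.0006, and that of Stober50 against Stober500 ran from -0.0294 to 0.025. Members at a few counts per library limit what single changes can show.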
